A study of Bos taurus with 24 samples.

Results

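On cattle chromosome 21 the genes STRA6, ISLR and ISLR2 lie side by side, and the stretch that holds them was described here in cultured skin fibroblasts of Holstein and Angus heifers. The rows of the deposited tables (each a whole gene span or a gene-free interval of genome build UMD v3.1) that start and end inside this stretch number 5 of 59846, of which 3 carry a gene symbol and 2 are intervals without one. The stretch was selected on ISLR2, whose level before LPS was far higher in Holstein than in Angus cultures of these same samples. The breed values below are therefore the values that chose it and are given as a description, without a p-value, whereas the changes with LPS were tested. Those changes start from the same 0 h cultures. The difference of the LPS change between breeds subtracts the 0 h gap, so for ISLR2 and STRA6 it is also given without a p-value. The same holds for the ISLR2 change from 0 h in either breed and with the breeds combined, which starts from the 0 h levels that chose it.

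RNA was sequenced from 24 cultures in 6 groups of 4, one culture for each of 4 Holstein and 4 Angus heifers at 0, 2 and 8 h of LPS (lipopolysaccharide, the endotoxin of Gram-negative bacteria, here from E. coli) at 100 ng/ml. All heifers were in the second year of life, and their shoulder skin fibroblasts were revived from frozen stocks and grown in DMEM with fetal bovine serum. The 0 h cultures are the untreated controls, no untreated culture was held for 2 or 8 h, and each library came from a pair of wells joined at lysis. Each heifer gave a culture at every hour, so the replicate is the animal, and a breed is represented by 4 cell isolates. The study describes calves of these breeds as usually reared differently, so that breed and rearing cannot be told apart.

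STRA6 encodes the cell surface receptor that takes retinol (vitamin A) from its carrier RBP4 into the cell, where it can be oxidised to retinoic acid. ISLR (also called Meflin) and ISLR2 (also called Linx) encode related proteins with leucine-rich repeats and an immunoglobulin-like domain. ISLR is known as a marker of mesenchymal stromal cells and fibroblasts, and ISLR2 is a neuronal membrane protein known from axon growth, where it acts with neurotrophin and GDNF receptors.

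STRA6 spans bases 34878677 to 34901785 of chromosome 21 on the plus strand. ISLR (34903759 to 34906883) and ISLR2 (34950166 to 34954615) are on the minus strand, so STRA6 and ISLR lie tail to tail, with an interval of 1973 bases between them, and 43282 bases separate the start of ISLR from the end of ISLR2. None of the 5 rows overlaps another row. The rows that touch the stretch from outside are the interval from CCDC33 to the start of STRA6 (34834893 to 34878676) and the interval from the start of ISLR2 to the end of PML (34954616 to 34981852), which lay across the limits of the stretch and are used as its flanks. The RefSeq table of the newer ARS-UCD2.0 assembly gives the same gene order, with the non-coding gene LOC104969321 between ISLR2 and PML and with LOC112443152 (non-coding) and LOC132343362 (protein-coding) between CCDC33 and STRA6.

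The summed counts of a library were 51014538 to 104406293, so that 1 CPM (a level scaled to the summed counts of the library) stands for 51.0 to 104 counts. Levels are CPM adjusted by the trimmed mean of M values (TMM) unless counts are named. Fibroblast markers marked every library, with all 10 of 10 at a mean of 1 CPM or more and summed levels of 39600 to 90900 CPM (Angus) and 64300 to 128000 CPM (Holstein libraries). By the same count 4 of 5 pericyte and smooth muscle markers were detected (ACTA2 at 2760 to 7860 CPM), 2 of 8 of Schwann cells and neurons (TUBB3 at 10.2 to 28.7 CPM), 2 of 5 of endothelium (VWF at 0.513 to 3.28 CPM), 1 of 5 of melanocytes (PMEL at 0.793 to 2.71 CPM), 1 of 6 of keratinocytes and 0 of 5 of leukocytes, and their part in the results was not tested. The 3 libraries of Holstein 1 stood apart in the epidermal keratin KRT5 (8.38 to 10.2 CPM, against at most 0.643 CPM in the other 21 libraries). Reads of COL1A1 were tallied differently in 4 libraries (Angus 4, Holstein 2 and Holstein 4 at 0 h, and Angus 3 at 2 h), at 66.2 to 67.1 bases of coverage a count where the other 20 had 111.8 to 119.0. STRA6, ISLR and ISLR2 showed no such gap in the libraries with enough counts to judge. STRA6 in Angus 4 and Holstein 4 at 0 h (11 and 17 counts) and ISLR2 in Angus 4 at 0 h (5 counts) were not judged. STRA6 lay at 57.8 to 79.0 bases a count in the other 20 libraries and at 60.8 to 77.0 among the 4. Results that rest on the 4 libraries are also given without them.

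ISLR2 was the row with the widest breed gap of the stretch. Before LPS its CPM was 4.18, 3.26, 1.38 and 3.44 in Holstein 1 to 4 and 0.184, 0.332, 0.356 and 0.0481 in Angus 1 to 4. Every Holstein culture was above every Angus culture, and the group means were 3.07 ± 1.19 and 0.23 ± 0.143 CPM (SD, n = 4 each), a ratio of 13.3. The raw counts behind these values were 127 to 279 in Holstein and 5 to 33 in Angus libraries, so the Angus level rests on few reads. In bulk RNA, fewer cells that express a gene and less RNA per cell cannot be told apart.

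The gap was also present after LPS. At 2 h the means were 4.08 ± 1.54 CPM in Holstein and 0.543 ± 0.314 CPM in Angus cultures (SD, n = 4 each), a ratio of 7.52. At 8 h they were 3.25 ± 1.41 and 0.336 ± 0.182 CPM, a ratio of 9.67. The breeds did not overlap at either hour, the lowest Holstein culture standing at 1.85 CPM against 0.91 CPM for the highest Angus culture at 2 h, and at 1.52 against 0.471 CPM at 8 h.

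The same animals were high and low at each hour. Holstein 3 had the lowest ISLR2 level of its breed at 0, 2 and 8 h and Holstein 1 the highest, while Angus 4 was the lowest and Angus 3 the highest of its breed. Holstein 1 is also the animal with KRT5 reads. With each animal left out in turn, the ratio of the means ran from 10.5 to 16.3 at 0 h, from 6.06 to 9.71 at 2 h and from 7.74 to 11.4 at 8 h, and without the libraries with a different tally of COL1A1 reads it was 9.56 at 0 h (2 Holstein and 3 Angus libraries) and 9.71 at 2 h.

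Between the 6 groups the mean ISLR2 level fell in the order Holstein 2 h, Holstein 8 h, Holstein 0 h, Angus 2 h, Angus 8 h and Angus 0 h. Neighbours in this order had overlapping ranges except at the step from Holstein 0 h to Angus 2 h. The order thus separated the breeds, and within a breed the ranges of the hours overlapped.

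**Figure D1:**
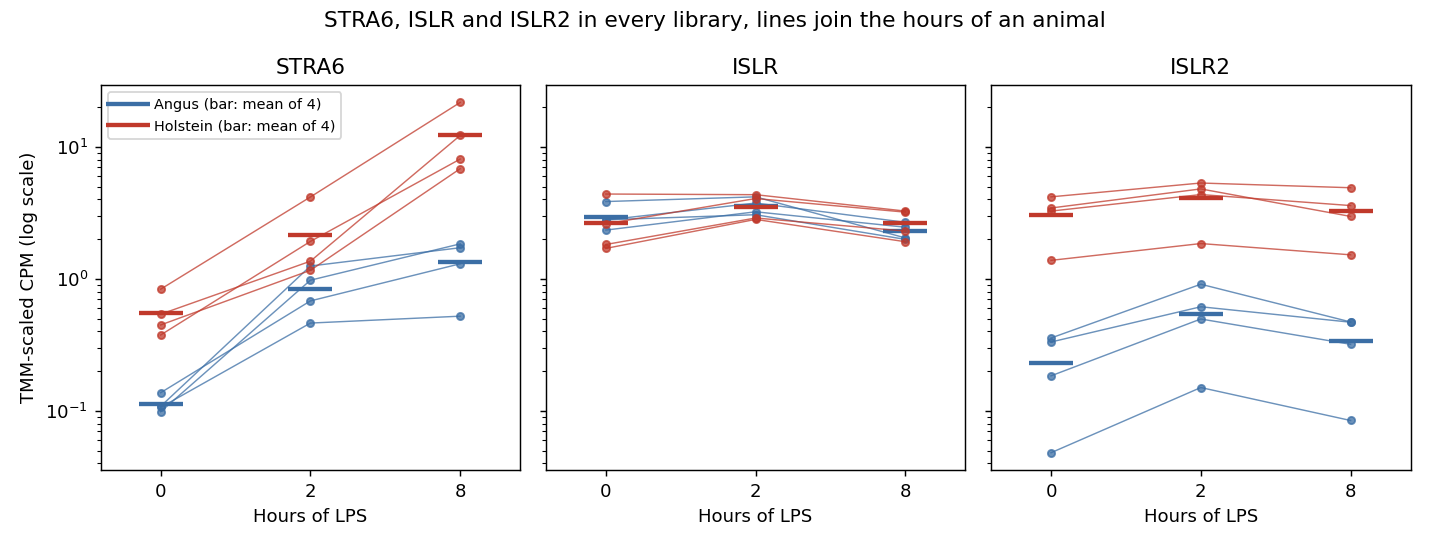
TMM-scaled CPM (log axis) of STRA6, ISLR and ISLR2 against hours of LPS, with a point per library, lines joining the cultures of an animal and horizontal bars at the mean of 4 animals. The 4 Holstein lines of ISLR2 (lowest 1.38 CPM) stay above the 4 Angus lines (highest 0.91 CPM), the ISLR lines are mixed between breeds, and STRA6 climbs in every animal.

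ISLR, the nearest related gene, did not share the gap. Before LPS its CPM was 4.39, 2.61, 1.82 and 1.7 in Holstein 1 to 4 and 2.34, 2.79, 2.8 and 3.85 in Angus 1 to 4, and the breeds overlapped throughout. The means were 2.63 ± 1.24 CPM in Holstein and 2.94 ± 0.642 CPM in Angus cultures (SD, n = 4 each) at 0 h, 3.53 ± 0.786 and 3.55 ± 0.509 CPM at 2 h, and 2.67 ± 0.669 and 2.29 ± 0.334 CPM at 8 h. The ratio of Holstein to Angus was 0.892, 0.993 and 1.16 at 0, 2 and 8 h. Without the libraries with a different tally of COL1A1 reads the 0 h ratio was 1.17, on the other side of 1.

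All neighbours overlapped in the order of the ISLR group means, which was Angus 2 h, Holstein 2 h, Angus 0 h, Holstein 8 h, Holstein 0 h and Angus 8 h. Per kilobase of the row, the mean ISLR level was 0.733 to 1.14 CPM over the 6 groups. On the same per-length scale ISLR2 was at 0.69 to 0.917 CPM in Holstein and at 0.0517 to 0.122 CPM in Angus groups. Holstein cultures thus carried ISLR2 at about the level of ISLR, and Angus cultures well below it.

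STRA6, on the far side of ISLR, did share the direction of the gap. Before LPS its CPM was 0.539, 0.834, 0.447 and 0.375 in Holstein 1 to 4 and 0.0983, 0.137, 0.108 and 0.106 in Angus 1 to 4, which rests on 17 to 57 counts in Holstein and 8 to 12 counts in Angus libraries. The means were 0.549 ± 0.202 and 0.112 ± 0.0172 CPM (SD, n = 4 each), a ratio of 4.88 with no overlap. The level of STRA6 was thus low in both breeds before LPS, and lower in Angus.

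At 2 h the STRA6 means were 2.15 ± 1.38 CPM in Holstein and 0.843 ± 0.346 CPM in Angus cultures (SD, n = 4 each), and the breeds overlapped narrowly, since Holstein 3 at 1.16 CPM was below Angus 3 at 1.25 CPM. At 8 h the means were 12.2 ± 6.72 and 1.34 ± 0.595 CPM, a ratio of 9.08, with Holstein cultures at 12.2, 21.7, 6.83 and 8.08 CPM and Angus cultures at 1.84, 1.3, 1.72 and 0.521 CPM. The Holstein culture with the lowest value at 8 h was above the highest Angus culture. In the order Holstein 8 h, Holstein 2 h, Angus 8 h, Angus 2 h, Holstein 0 h and Angus 0 h, the first and the last step had no overlap, and the ranges of the other neighbours overlapped.

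The animals did not rank alike for STRA6 and ISLR2. Holstein 2 was the highest of its breed for STRA6 at each hour, whereas Holstein 1 was for ISLR2. Per kilobase of its row, introns included, STRA6 rose from 0.0238 CPM at 0 h to 0.528 CPM at 8 h in Holstein groups and from 0.00485 to 0.058 CPM in Angus groups.

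The interval between ISLR and ISLR2, which holds no annotated gene in the tables, shared the breed gap of ISLR2. Its level before LPS was 2.01, 1.33, 0.578 and 1.41 CPM in Holstein 1 to 4 and 0.0737, 0.298, 0.281 and 0.25 CPM in Angus 1 to 4. The breeds did not overlap at any hour, with ratios of 5.9, 3.78 and 6.58 at 0, 2 and 8 h. Holstein 1 was again the highest and Holstein 3 the lowest of its breed at each hour, while among Angus animals the order differed from that of ISLR2, with Angus 1 the lowest at 0 h and Angus 2, 1 and 3 the highest at 0, 2 and 8 h. Counts were 53 to 259 in Holstein and 6 to 40 in Angus libraries over a row of 43282 bases.

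The interval between STRA6 and ISLR was nearly silent. It held 7 counts over all 24 libraries, with at least 1 count in 4 of them, and no library passed the level of 3 counts (0.0289 to 0.0661 CPM, depending on the library). No breed or hour could be compared there at this depth.

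By the rule for a called row (a false discovery rate, FDR, under 0.05 in the edgeR likelihood-ratio test, a fold change of 2 or more and a mean above 1 CPM), 1 of the 2 rows of the stretch that passed the filter on low levels was called between breeds at 0 h, against 3.81% of all rows. It was ISLR2, with a log2 fold change of Holstein over Angus of 3.73 ± 0.52 (SE). At 2 h 2 of 3 were called (4.45% of all rows), with 2.90 ± 0.50 for ISLR2 and 1.35 ± 0.46 for STRA6. The quasi-likelihood test did not call STRA6 there, nor was it called with any of Angus 1, Angus 2, Angus 4, Holstein 2 or Holstein 4 left out, the value being 0.82 without Holstein 2. At 8 h 2 of 3 were called (3.24% of all rows), with 3.26 ± 0.49 for ISLR2 and 3.18 ± 0.45 for STRA6. These are the values that chose the stretch, and nothing is read from the counts. The log2 fold change of ISLR was -0.17 ± 0.32, -0.02 ± 0.22 and 0.22 ± 0.23 at 0, 2 and 8 h.

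With a filter on a total of 10 counts, which keeps the lower rows, the log2 fold change between breeds of STRA6 at 0 h was 2.26 ± 0.39 (SE), and that of the interval between ISLR and ISLR2 was 2.52 ± 0.47, 1.91 ± 0.40 and 2.68 ± 0.42 at 0, 2 and 8 h, the last of which was called. Going along the chromosome, the gap was thus present in STRA6, absent in ISLR, present in the interval behind it and widest in ISLR2. On the ISLR2 side it did not run on at that width. In the interval from ISLR2 to PML, where reads were more plentiful, it was 0.83 ± 0.18, 0.50 ± 0.21 and 1.26 ± 0.17 on the same scale. On the STRA6 side, the interval from CCDC33 to STRA6 had 0.49 ± 1.24 at 0 h and 1.07 ± 0.70 at 2 h. At 8 h this interval had 3.07 ± 0.39, beside 3.15 ± 0.43 for STRA6, so the gap did run on there.

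PML, which organises nuclear bodies and is known as an interferon-induced gene, is the next gene on the ISLR2 side. Its means were 16.1 ± 2.26 CPM in Holstein and 14.6 ± 1.67 CPM in Angus cultures at 0 h (SD, n = 4 each), with overlapping breeds, and 35.0 ± 4.07 and 20.4 ± 1.32 CPM at 8 h, where they did not overlap. On the STRA6 side, the interval towards CCDC33 held 0 to 5 counts a library at 0 h in both breeds. At 8 h it held 86 to 319 counts in Holstein and 11 to 27 counts in Angus libraries. CCDC33 itself, which encodes a coiled-coil protein, held 0 to 8 counts in every library.

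**Figure D2:**
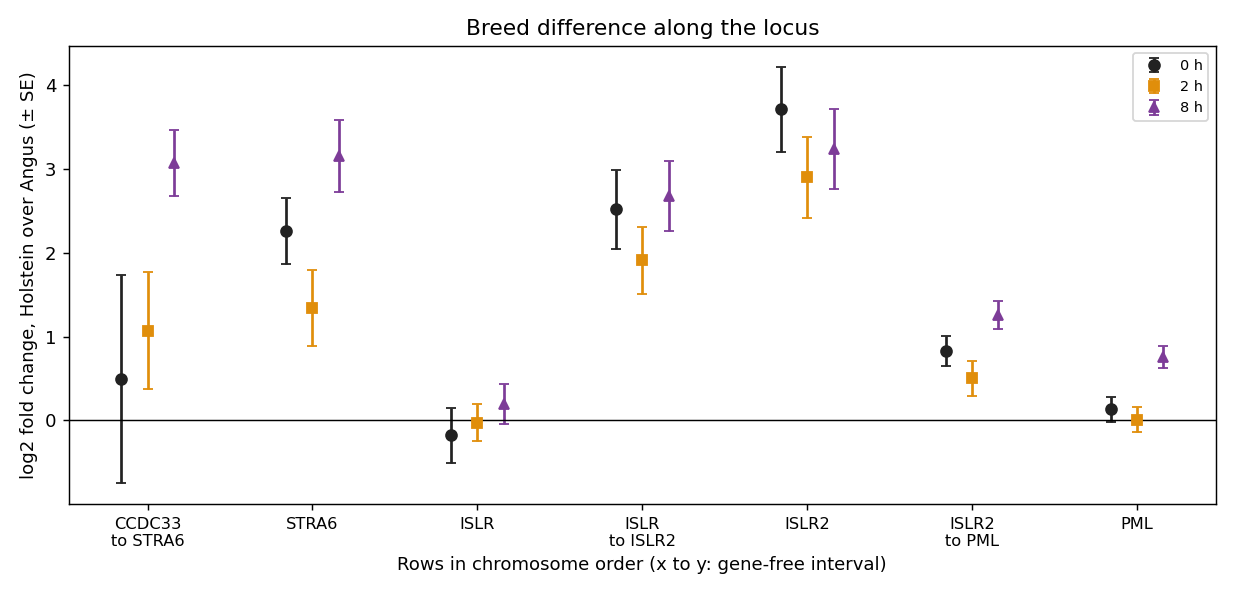
Log2 fold change of Holstein over Angus (± SE) at 0, 2 and 8 h for the rows in chromosome order, fitted with the filter on a total of 10 counts and shown as a description. The near-silent interval between STRA6 and ISLR has no value. ISLR sits within 0.2 of 0 at all 3 hours while STRA6, the interval between ISLR and ISLR2, and ISLR2 sit above 1.

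Within 500 kb on either side of the stretch lay 61 further rows, 31 of them with a symbol, of which 18 to 20 passed the filter in a given comparison. Between breeds 1 of 18 was called at 0 h, 0 of 20 at 2 h and 2 of 20 at 8 h, beside 3.81%, 4.45% and 3.24% of all rows. The 2 rows called at 8 h were the flanking intervals that touch the stretch, both higher in Holstein. Their log2 fold changes were 3.1 ± 0.39 (SE) on the STRA6 side and 1.29 ± 0.17 on the ISLR2 side. The row on the STRA6 side passed the filter only through the Holstein libraries, so its call is a description. Its range at 8 h was 1.4 to 3.97 CPM in Holstein and 0.155 to 0.362 CPM in Angus. The 0 of 20 at 2 h comes from the edgeR likelihood-ratio test, with 7 of these rows at an unadjusted p under 0.05, 0 called by the quasi-likelihood test and 1 by DESeq2. The called gene was SEMA7A, a membrane-anchored semaphorin, at 0 h, not called by the quasi-likelihood test (4.58 ± 1.08 CPM in Holstein and 1.36 ± 0.956 CPM in Angus cultures, SD, n = 4 each). The median log2 fold change of the tested neighbours was 0.17, 0.06 and 0.20 at 0, 2 and 8 h, beside medians of 0.00 to 0.01 in size over all rows.

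STRA6 was higher at 2 and 8 h of LPS than at 0 h in every animal of both breeds. No untreated culture was held for those hours, so LPS and time in culture cannot be told apart. In Holstein 1 to 4 the level at 8 h was 22.7, 26.0, 15.3 and 21.6 times that at 0 h. In Angus 1 to 4 it was 18.7, 9.46, 15.9 and 4.92 times that at 0 h. At 2 h the ratios were 2.53 to 5.12 in Holstein and 4.36 to 11.6 in Angus cultures, so that all 8 animals moved up at both hours.

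In Holstein cultures STRA6 was the only called row among the 4 of the stretch that passed the filter, at 2 h (3.14% of all rows called) and at 8 h (2.51%). STRA6 passed this filter only through the LPS libraries, its 0 h range being 0.375 to 0.834 CPM. Its log2 fold change was 1.96 ± 0.44 (SE) at 2 h, with an FDR of 0.000251, and 4.47 ± 0.40 at 8 h, with an FDR of 4.6e-21 (edgeR likelihood-ratio test). With the filter on a total of 10 counts, which does not depend on the LPS libraries passing 1 CPM, the FDR in this test was 0.000382 at 2 h and 3.51e-22 at 8 h. Over 10 alternatives the FDR was at most 0.0154 at 2 h and 0.000464 at 8 h. Without Holstein 2, the animal with the most STRA6, the 2 h fold change was 1.69 with an FDR of 3.64e-06, but the mean was no longer above 1 CPM and the row was not called.

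In Angus cultures the level of STRA6 was under the filter of 1 CPM in 50% of the samples, as it was with the breeds combined. The 1 row of the stretch that passed in Angus was ISLR, and it was not called at 2 h (2.98% of all rows called) or 8 h (0.863%), nor had it an unadjusted p under 0.05, nor did the quasi-likelihood test or DESeq2 call it. With the filter on 10 counts, STRA6 in Angus rose by 2.88 ± 0.42 on the log2 scale at 2 h, with an FDR of 1.34e-09, and by 3.56 ± 0.45 at 8 h, with an FDR of 4.63e-11 (edgeR likelihood-ratio test). It stayed uncalled because its mean was 0.473 and 0.768 CPM. These folds rest on 8 to 12 counts a library at 0 h.

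With the breeds combined, ISLR and ISLR2 passed the filter. Of these 2 rows 0 were called at 2 h (2.82% of all rows called) and 0 at 8 h (1.42%), which for ISLR2 is a description. For ISLR the unadjusted p was 0.0772 at 2 h and 0.384 at 8 h (edgeR likelihood-ratio test). The quasi-likelihood test and DESeq2 did not call it. With the filter on 10 counts, STRA6 rose by 4.35 ± 0.63 (log2) at 8 h, with an FDR of 3.18e-07 in the edgeR likelihood-ratio test, and was called (0.726% of all rows called under this filter). The study also lists STRA6 as raised at 8 h with the breeds combined, and does not state the denominator of its CPM filter. At 2 h the log2 fold change of STRA6 under the 10-count filter was 2.19 ± 0.49, with an FDR of 0.000362 and a mean of 0.889 CPM.

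A breed difference in the rise of STRA6 subtracts breed gaps of the chosen stretch, so it is a description without a p-value. The difference of the log2 fold changes, Holstein less Angus, was -0.93 ± 0.62 (SE) at 2 h and 0.90 ± 0.61 at 8 h (filter on 10 counts). With a term for the animal, since the same animals were sampled at each hour, the differences were -0.98 and 0.93. The sign differed between the hours, the ratio to 0 h being higher in Angus at 2 h and higher in Holstein at 8 h. Neither difference was called, and no conclusion is drawn from them.

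The interval before the start of STRA6 rose along with it. In Holstein its log2 fold change at 8 h was 6.28 ± 0.65 with an FDR of 3.97e-25 (edgeR likelihood-ratio test), from 0 to 5 counts at 0 h. It passed the filter of 1 CPM there only through the 8 h libraries. With the filter on 10 counts the value was 6.27 ± 0.65, with an FDR of 9.64e-25 in the same test. In Angus, with the filter on 10 counts, it was 3.74 ± 0.73 with an FDR of 9.95e-06. The difference between breeds at 8 h was 2.54 ± 0.96 with an FDR of 0.861. Whether these reads belong to STRA6 was not tested, and the reads carry no strand.

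ISLR2 was not called with LPS in any comparison, which is a description. At 2 h its level was 1.27 to 1.40 times that at 0 h in Holstein and 1.85 to 3.12 times in Angus animals, above 0 h in all 8. At 8 h the ratio was 0.865 to 1.17 in Holstein and 1.32 to 1.75 in Angus animals. The log2 fold change in Holstein was 0.41 ± 0.40 (SE) at 2 h and 0.09 ± 0.40 at 8 h, without a p-value because the 0 h level helped choose ISLR2.

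With the animal as a block, the rise of ISLR2 at 2 h in Holstein was 0.41 on the log2 scale. With the breeds combined it was 0.68, and in Angus, with the filter on 10 counts, it was 1.26. These values are given without a p-value because the 0 h levels of both breeds are what chose ISLR2. The Holstein and the combined rise were under a fold of 2, and in Angus the mean was 0.383 CPM, so none was called.

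The difference of the ISLR2 change between breeds, Holstein less Angus, was -0.81 ± 0.77 (SE) at 2 h and -0.47 ± 0.77 at 8 h, and -0.82 and -0.48 with the animal as a block. It subtracts the 0 h gap on which ISLR2 was chosen and is a description. Without the libraries with a different tally of COL1A1 reads, in a fit with no block that splits the pairs of cultures of 4 animals, the 2 h value was 0.03. The 4 animals with neither culture among those libraries had ratios to 0 h at 2 h of 2.69 and 1.85 (Angus 1 and 2) and 1.27 and 1.34 (Holstein 1 and 3). Under the filter of 1 CPM, ISLR was the other row of the stretch tested for such a difference. Its value was 0.16 ± 0.39 at 2 h and 0.38 ± 0.40 at 8 h, with an unadjusted p of 0.676 and 0.344 (edgeR likelihood-ratio test). ISLR was not called at 2 h (0.278% of all rows called) or at 8 h (0.0982%), nor by the quasi-likelihood test or DESeq2.

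ISLR moved little. Its log2 fold change with the breeds combined was 0.34 ± 0.19 (SE) at 2 h, with an FDR of 0.227, and -0.17 ± 0.20 at 8 h, with an FDR of 0.658 (edgeR likelihood-ratio test). The ratio to 0 h at 2 h was 1.08 to 1.38 in Angus and 0.99 to 1.67 in Holstein animals, above 1 in 7 of 8. With the animal as a block, the 2 h value was 0.37 with an FDR of 0.00156, under a fold of 2.

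The interval between ISLR and ISLR2 had log2 fold changes in Holstein of 0.20 ± 0.42 at 2 h, with an FDR of 0.871, and 0.43 ± 0.42 at 8 h, with an FDR of 0.597 (edgeR likelihood-ratio test). The interval from ISLR2 to PML was higher than at 0 h in both breeds. It rose by 1.14 ± 0.19 at 2 h and 1.08 ± 0.19 at 8 h in Holstein, with FDRs of 5.23e-08 and 3.28e-07, and by 1.48 ± 0.21 at 2 h in Angus, with an FDR of 4.06e-10. Holstein cultures held 8.24 ± 1.58, 18.2 ± 3.13 and 17.4 ± 3.04 CPM at 0, 2 and 8 h, and Angus cultures 4.58 ± 0.14, 12.7 ± 3.5 and 7.15 ± 0.845 CPM (SD, n = 4 each). Its change at 8 h in Angus, 0.64 ± 0.16 with an FDR of 0.00326, was under a fold of 2, and in Holstein the 8 h call was lost without Holstein 3 (0.99).

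PML was called at 8 h in Holstein, with a log2 fold change of 1.12 and an FDR of 2.98e-14, and its ratio to 0 h was 1.97 to 2.48 there against 1.10 to 1.57 in Angus animals. The difference between breeds was 0.64 with an FDR of 0.138 (edgeR likelihood-ratio test). Among all tested neighbours, 1 of 19 was called at 2 h with the breeds combined, 3 of 19 at 8 h in Holstein and 0 of 19 at 8 h in Angus, beside 2.82%, 2.51% and 0.863% of all rows. Beside that last count, 2 rows had an unadjusted p under 0.05, and the quasi-likelihood test and DESeq2 called 0. The rows called with LPS thus lay at the outer sides of the region (STRA6 and the interval before it, the interval up to PML, and PML), and ISLR and ISLR2 between them were not called.

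**Figure D3:**
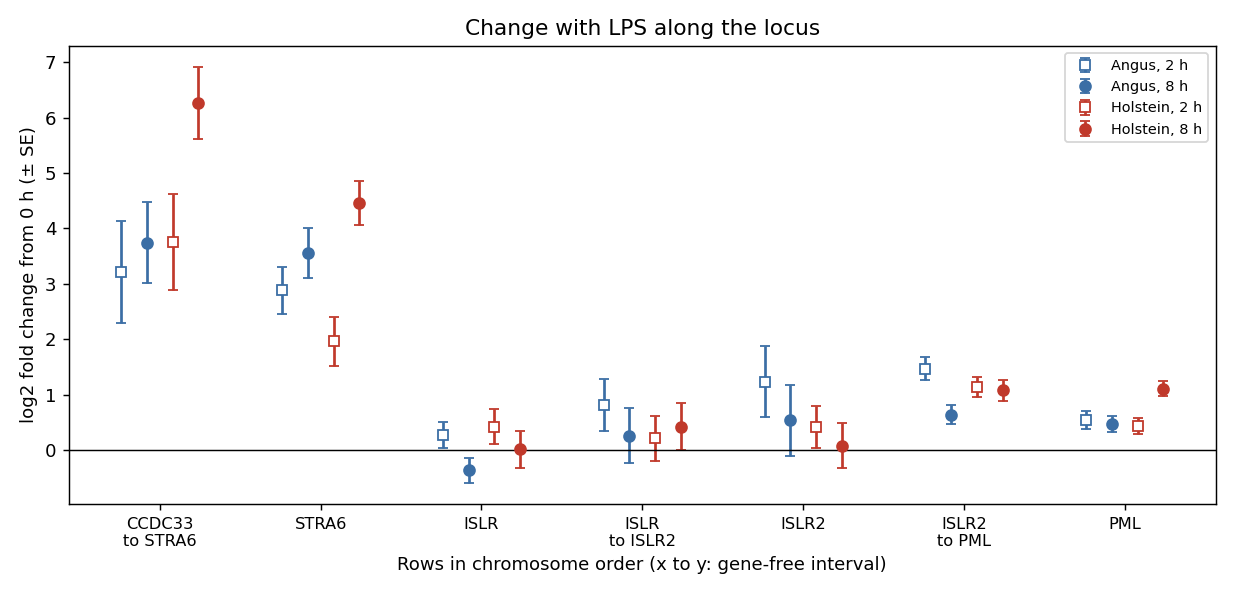
Log2 fold change from 0 h (± SE) at 2 h (open squares) and 8 h (filled circles) in Angus (blue) and Holstein (red) cultures for the rows in chromosome order, fitted with the filter on a total of 10 counts. STRA6 and the interval before it rise in both breeds, to 4.46 for STRA6 in Holstein at 8 h, while ISLR stays within 0.5 of 0.

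Of 40 genes of retinoid uptake, metabolism and signalling, the pathway STRA6 feeds, 37 had a single row and 20 to 23 passed the filter in a comparison. In Holstein cultures 3 of 21 were called at 2 h, all upward, namely STRA6, ALDH1A3 and CYP26B1, and 3 of 23 at 8 h, all upward, namely STRA6, ALDH1A3 and TGM2, beside 3.14% and 2.51% of all rows. STRA6 was in both counts only through its LPS libraries. In Angus cultures 1 of 20 was called at 2 h (ALDH1A3, 1.30 ± 0.47 with an FDR of 0.0456 in the edgeR likelihood-ratio test and not called by the quasi-likelihood test or DESeq2) and 0 of 20 at 8 h, where 4 had an unadjusted p under 0.05, the quasi-likelihood test and DESeq2 called 0, and the fit with the animal as a block called 2. The shares of all rows called there were 2.98% and 0.863%, and 1.23% at 8 h with the block. The median of the tested genes at 8 h was -0.15 in Holstein and -0.13 in Angus on the log2 scale, beside -0.00 and -0.01 over all rows.

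ALDH1A3, which makes retinoic acid from retinal, stood at 35.3 ± 7.81, 79.7 ± 30.4 and 153.0 ± 50.6 CPM at 0, 2 and 8 h in Holstein cultures and at 24.9 ± 12.8, 61.5 ± 29.6 and 69.8 ± 38.5 CPM in Angus cultures (SD, n = 4 each). Its log2 fold change at 8 h was 2.12 ± 0.25 (SE) in Holstein, with an FDR of 3.71e-14, and 1.48 ± 0.49 in Angus, with an FDR of 0.0705 (edgeR likelihood-ratio test). The difference between breeds was 0.63 ± 0.59 with an FDR of 1.0.

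CYP26B1, which breaks retinoic acid down, rose in Holstein at 2 h by 1.33 ± 0.15 on the log2 scale with an FDR of 3.12e-16, from 17.7 ± 2.75 to 44.5 ± 6.47 CPM, and stood at 11.9 ± 2.37 CPM at 8 h. TGM2, a transglutaminase whose gene is known to be induced by retinoic acid, rose in Holstein at 8 h by 1.48 ± 0.42 with an FDR of 0.00576, from 0.759 ± 0.444 to 2.12 ± 0.578 CPM. RARB, the retinoic acid receptor gene known to be induced by its own ligand, showed 1.79 ± 0.53 on the log2 scale there, with an FDR of 0.0105, and was not called at a mean of 0.952 CPM.

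Between breeds, 2 of 20 retinoid genes were called at 0 h, 2 of 21 at 2 h and 7 of 23 at 8 h (3.81%, 4.45% and 3.24% of all rows), STRA6 among them at 2 and 8 h, and 1, 1 and 5 were called by the quasi-likelihood test. RDH10, which oxidises retinol to retinal, was higher in Holstein at all 3 hours, with 66.9 ± 12.9 CPM in Holstein and 23.3 ± 7.89 CPM in Angus cultures at 0 h (SD, n = 4 each) and log2 fold changes of 1.52 ± 0.25, 1.52 ± 0.28 and 1.62 ± 0.31 (SE). CYP26B1 was lower in Holstein at 0 h (-1.02 ± 0.28) and 8 h (-1.30 ± 0.30). At 8 h TGM2 (3.05 ± 0.30), RARB (1.71 ± 0.49), RARRES2 (1.14 ± 0.37) and ALDH1A3 (1.14 ± 0.41) were also called and higher in Holstein. TGM2 and RARB passed the filter at 8 h only through the Holstein libraries. Their means there were 2.12 and 1.49 CPM, against 0.254 and 0.453 CPM in Angus, so these 2 calls are a description. The list was drawn up with STRA6 and its breed gap in view.

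**Figure D4:**
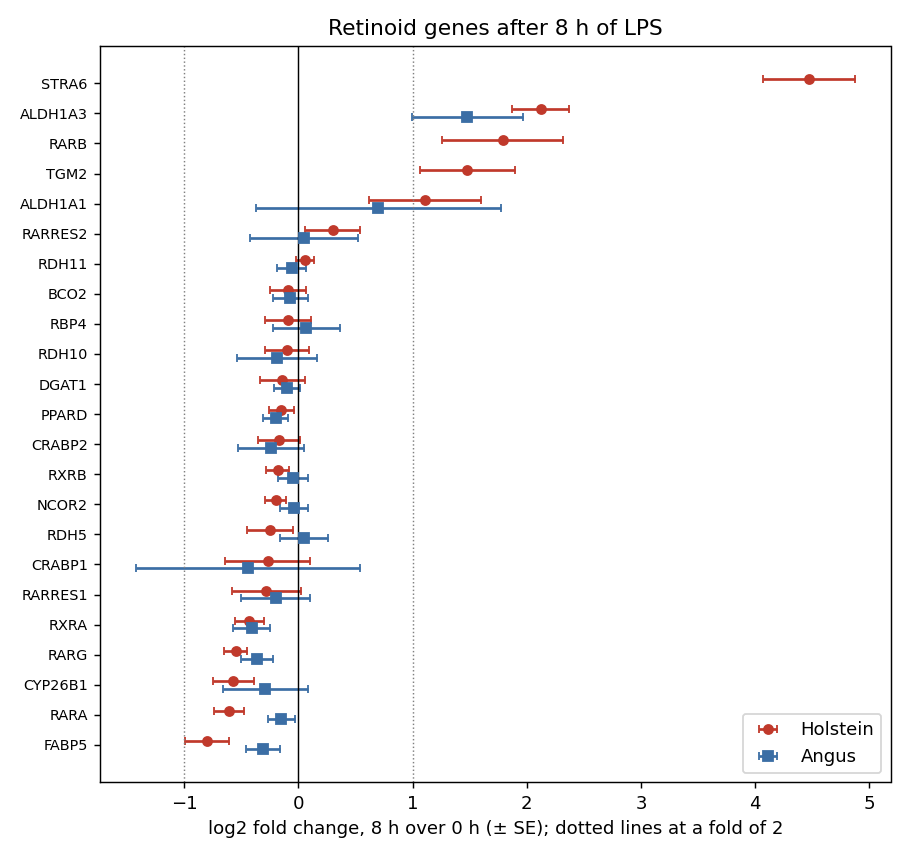
Log2 fold change from 0 h to 8 h of LPS (± SE) of the retinoid genes that passed the filter in Holstein (red circles, 23 genes) and Angus (blue squares, 20 genes), ordered by the Holstein value. STRA6, at 4.47 in Holstein, and ALDH1A3 stand to the right, most genes lie within a fold of 2 (dotted lines), and STRA6, RARB and TGM2 were under the filter in Angus.

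Of 35 genes for proteins that, like ISLR and ISLR2, join leucine-rich repeats to immunoglobulin-like domains, or are close kin of such proteins, 33 had a single row and 18 to 20 passed the filter. LRIG3, of a family of membrane proteins that act on growth factor receptors, fell at 2 h by 2.36 ± 0.09 on the log2 scale in Holstein and by 1.56 ± 0.22 in Angus, with FDRs of 3.55e-130 and 7.91e-10 (edgeR likelihood-ratio test). Its level at 0 and 2 h was 40.0 ± 1.55 and 7.79 ± 0.391 CPM in Holstein cultures and 51.4 ± 6.41 and 17.5 ± 5.68 CPM in Angus cultures (SD, n = 4 each). The adhesion gene AMIGO2 fell at 8 h by 1.5 ± 0.18 on the log2 scale in Holstein and by 1.20 ± 0.30 in Angus, with FDRs of 1.29e-13 and 0.00437 (edgeR likelihood-ratio test). The quasi-likelihood test did not call it in Angus, and its row overlaps that of FAM113B. MXRA5, a matrix protein, rose at 8 h in Holstein by 3.41 ± 0.30 with an FDR of 4.86e-23, against 2.00 ± 0.97 with an FDR of 0.357 in Angus. Called members went both ways, 1 up and 1 down of 20 in Holstein at 8 h (2.51% of all rows).

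LRFN3 fell in Angus at 2 h by 1.07 ± 0.32 on the log2 scale, with an FDR of 0.0103 (edgeR likelihood-ratio test). Between breeds the called members beside ISLR2 were LRIG3 (-1.17) and LRFN3 (1.01) at 2 h and LRRN3 (-1.26) and LRRN2 (1.17) at 8 h, in 3 of 20 and 3 of 19 tested genes (4.45% and 3.24% of all rows). At 0 h ISLR2 was the called member, 1 of 20 (3.81% of all rows).

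Of 16 genes for receptors that ISLR2 is known to act with and for their ligands, 15 had a single row and 3 or 4 passed the filter. Among them were NTRK2 (the BDNF receptor), GFRA4 (a receptor subunit of the GDNF family) and, depending on the comparison, GDNF or BDNF. GFRA4 fell at 8 h by 1.24 ± 0.16 on the log2 scale with the breeds combined, with an FDR of 1.2e-11 (edgeR likelihood-ratio test), and in each breed. The called genes at 8 h were 1 of 3 with the breeds combined, 2 of 4 in Holstein and 1 of 4 in Angus, beside 1.42%, 2.51% and 0.863% of all rows. BDNF was called at 8 h in Holstein, with 1.08 ± 0.39 and an FDR of 0.0401, but not by the quasi-likelihood test, and NTRK2 (0.69 ± 0.23) passed the FDR limit there without reaching a fold of 2. None of the 3, 4 and 4 tested was called between breeds at 0, 2 and 8 h, beside 3.81%, 4.45% and 3.24% of all rows. With so few genes at such shares, nothing is read from the absence of calls. The log2 differences at 0 h were 0.35 ± 0.35 for NTRK2 and 0.51 ± 0.19 for GFRA4 in the edgeR likelihood-ratio test, with 2 of 3 at an unadjusted p under 0.05 and 0 called by the quasi-likelihood test or DESeq2.

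The genes outside the stretch whose log2(CPM + 1) pattern over the 24 libraries was most like that of ISLR2 were SLC6A16 (Pearson r of 0.93), PTGFRN (0.926) and GPX3 (0.925), among 12955 genes. These libraries fall into 2 breeds, and once each breed was centred on its own mean the values were 0.633, 0.77 and 0.764. For STRA6 they were ROBO1 (0.94), NUB1 (0.934) and PDXK (0.934), and within breeds 0.923, 0.91 and 0.958. For ISLR they were TMEM43 (0.801), PPARD (0.79) and NECAB3 (0.766). The order depended on the scale. Within breeds SLC6A16 ranked 152 for ISLR2, and with a pseudocount of 0.1 CPM in place of 1 CPM PTGFRN ranked 16 for ISLR2 and ROBO1 9 for STRA6. The points share libraries and depth, the cultures of an animal are not independent, and the values are a description.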

How the data were processed

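Poly(A) RNA of 24 cultures was made into TruSeq version 2 libraries, which keep no strand. Per the file headers and the study's methods, the authors aligned reads to UMD v3.1 with NextGENe 2.3.4 and deposited raw read counts per row. The deposited coverage (signal) column, the mean reads over a base, was used only to find the 4 libraries with a different tally of COL1A1 reads, under 80 covered bases a count. A row spans introns, and summed counts were 1.5 to 1.712 times the 31440126 to 66287735 matched reads, so that reads were credited more than once, by a rule not given in the sources used here. CPM was computed from the counts. P-values within a breed, between breeds and of the interaction measure the spread between 4 animals a breed. The fit with the breeds combined has no term for breed, so its spread also takes in the breed gap. Fits with the animal as a block measure the spread left within animals.

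Rows with 1 CPM in 50% of the samples compared were fitted with the generalized linear model likelihood-ratio test of edgeR 4.0.16 in R 4.3.3, with TMM scaling and Benjamini-Hochberg adjustment over all rows. Breeds were compared at each hour, LPS hours with 0 h in each breed and combined, and the changes between breeds by an interaction term. Alternatives were the quasi-likelihood test, DESeq2 1.42.0 (where an undefined adjusted p stays undefined), RLE scaling, a filter on a total of 10 counts, the FDR limit alone, the 4 libraries or each animal left out, and the animal as a replicate block. The same animal was sampled at 0, 2 and 8 h, and deviations from the group means correlated at 0.533 or more within every animal. The combination of the 10-count filter with the other alternatives, and of the block with the quasi-likelihood test, was chosen after seeing the data. Scripts were tested on simulated data.

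The stretch and the gene lists were chosen with earlier results of these data known. Genes were named by rule: all members, list genes called in a comparison or all tested where 5 or fewer (some of these are not reported here), called neighbours with a symbol, and the 3 genes outside the stretch with the highest correlation. RARB, ALDH1A3 in Angus and the flanking intervals were added after their values were seen.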

Additional observations from a re-analysis of the deposited data

How the results depend on the processing

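Depth limits the Angus values of ISLR2 and STRA6, which rest on 5 to 33 and 8 to 12 counts at 0 h, and all log2 fold changes from those libraries. Leaving out a Holstein animal put ISLR2 under the CPM filter in fits of both breeds, so no value was had there. The number of rows of the stretch called with LPS at 8 h, breeds combined, went from 0 to 1 (STRA6) without the libraries with a different tally of COL1A1 reads and with the 10-count filter, because STRA6 then passed the filter, and was 0 to 1 with each animal left out. At 2 h in Holstein it was 0 to 1 with each animal left out. Between breeds it was 0 at 0 h without those libraries and 0 to 1 with each animal left out, 1 at 2 h by the quasi-likelihood test (STRA6 lost) and 0 to 2 with each animal left out, and 3 at 8 h with the 10-count filter (the interval between ISLR and ISLR2 added) and 1 to 2 with each animal left out.

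Uncalled values that changed sign were ISLR at 8 h in Holstein, from 0.02 to -0.21 without the libraries with a different tally of COL1A1 reads and -0.09 to 0.27 with each animal left out, the breed difference in the ISLR change without those libraries (-0.31 at 2 h and -0.01 at 8 h), and that of ISLR2 at 2 h (0.03). The cause was not tested. With the replicate block 1 row was called in Holstein at 2 h and 1 at 8 h, and 0 with the breeds combined, in Angus or in the breed difference of the change. It was not run between breeds, which share no animal. In the lists the block added calls in 6 comparisons, to 2 of 20 retinoid genes at 8 h with the breeds combined and 4 of 23 in Holstein, to 2 of 20 in Angus, to 3 of 19 at 2 h and 2 of 18 at 8 h among the leucine-rich repeat genes in Angus, and to 4 of 19 neighbours at 8 h in Holstein. It changed no call of STRA6, ISLR or ISLR2. Over all rows the calls moved by over 1.5 times in Angus at 8 h (178, and 90 by the quasi-likelihood test), in the breed difference of the change (56 at 2 h, 16 by that test and 126 with the block; 20 at 8 h, 0 by that test, 6 without those libraries and 100 with the block) and between breeds at 0 h without those libraries (777 and 258). With 1 animal left out they moved as far between breeds at 0 h (515 without Angus 4) and 8 h (671, 1128 without Angus 3 and 446 without Angus 4) and in the breed difference of the change at 2 h (33 without Angus 4 and 34 without Holstein 1) and 8 h (8 without Angus 1, 62 without Angus 3 and 2 without Holstein 4). With the FDR limit alone, 28 to 4436 rows passed in a comparison, against 20 to 898 called.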
